A study of Glycine max and Zea mays with 6 samples.

Results

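The narrow peaks of trimethylated lysine 4 (H3K4me3) and acetylated lysine 56 (H3K56ac) of histone H3 in soybean leaf were compared peak by peak, by the position of their edges. The members were the peaks of both lists on the 20 chromosomes Gm01 to Gm20, 111566 of the 169329 peaks and regions listed for the series. Of these, 51142 were H3K4me3 peaks and 60424 were H3K56ac peaks. Both libraries came from untreated Glycine max of the accession William82, grown in soil for about 10 days at 25 °C in days of 16 light hours and 8 dark hours. The second and the third leaves were taken and fixed with 1% formaldehyde, and the sonicated chromatin was immunoprecipitated with an antibody against each mark. A list of broad H3K36me3 (trimethylated lysine 36) regions from the same kind of leaf served as a further readout. Each mark had 1 library, so no value has a replicate check, and no test between samples was possible. Intervals are exact (Clopper-Pearson) 95% binomial intervals. They cover counting error only and treat neighbouring peaks as independent, which they are not. The lists hold positions without a score, so depth is unknown, and a missing peak is a missing call.

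In plants H3K4me3 is placed by methyltransferases of the COMPASS type and is typical of the start of transcribed genes. Lysine 56 lies in the core of histone H3, near the place where DNA enters and leaves the nucleosome. In yeast its acetylation is placed on newly made histones before they are assembled into nucleosomes, and in plants it has been mapped to active genes. H3K36me3 typically covers the body of transcribed genes.

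The 4 photosynthesis genes taken as markers of leaf mesophyll carried both marks. RBCS1 (Rubisco small subunit), RCABETA (Rubisco activase), CAB3 (chlorophyll-binding protein) and FTRC (ferredoxin-thioredoxin reductase) each had overlapping peaks within 1 kb of a gene end. These were 4 of 4 such markers, where 65.3% of all protein-coding genes had such peaks. Another small subunit gene, RBCS2, was not among the markers and had H3K4me3 alone (named after its values were seen). Of 4 seed markers, the trypsin inhibitor gene KTI3 had overlapping peaks, the glycinin gene GY2 and the lectin gene LE1 had H3K4me3 alone, and GY1 had neither. Of 4 nodule markers, NOD33 had overlapping peaks, and N-56 and the leghemoglobin genes LB1 and LB2 had neither mark. A peak is not a measure of expression, and cells of leaf types other than mesophyll were not looked for.

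Peaks of the 2 marks mostly came as pairs of 1 peak each. A pair is an H3K4me3 peak and an H3K56ac peak that share at least 1 bp. There were 42999 pairs, made by 42129 H3K4me3 peaks (82.4% of the list) and 42311 H3K56ac peaks (70.0%). In 39951 pairs (92.9%) each peak had no other partner. By chromosome the paired share of H3K4me3 peaks ranged from 79.6% on Gm19 to 84.2% on Gm12, and that of H3K56ac peaks from 68.3% on Gm16 to 72.8% on Gm04. In base pairs, the marks shared 34.4 Mb, which was 76.4% of the length under H3K4me3, 69.7% of the length under H3K56ac and 57.3% of the 59.9 Mb under either. Few pairs lay near the limit of the rule. Overlaps of 1 to 50 bp made up 28 pairs (0.0651%), whose peaks had median lengths of 264.5 bp for H3K4me3 and 326.5 bp for H3K56ac. On the other side of the limit, 13 unpaired H3K4me3 peaks and 14 unpaired H3K56ac peaks lay within 50 bp of the other mark, with median lengths of 269 bp and 420 bp.

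Genes with a symbol of their own show the forms that pairs took. At BZIP114, a bZIP transcription factor gene on Gm14, the H3K4me3 peak and the H3K56ac peak both ran from 3155130 to 3156468, 1339 bp with the same edges. At TOC1, a clock gene on Gm06, the H3K4me3 peak of 1186 bp (17550909 to 17552094) contained the H3K56ac peak of 1111 bp (17550944 to 17552054), and the midpoints were 2.5 bp apart. At E4, a phytochrome A gene on Gm20, the peaks had nearly the same length, 1130 bp for H3K4me3 and 1121 bp for H3K56ac. The E4 peaks were nevertheless shifted by 225.5 bp, so that they shared 66.6% of the length they covered together. At the florigen gene FT2A on Gm16, an H3K4me3 peak of 358 bp lay inside an H3K56ac peak of 2011 bp, which reached 573 bp farther on the left and 1080 bp farther on the right. At FAD2-2, an oleate desaturase gene on Gm03, the order was the other way round. Its H3K4me3 peak of 2382 bp contained an H3K56ac peak of 926 bp, and the left edges were 100 bp apart while the right edges were 1356 bp apart.

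**Figure D1:**
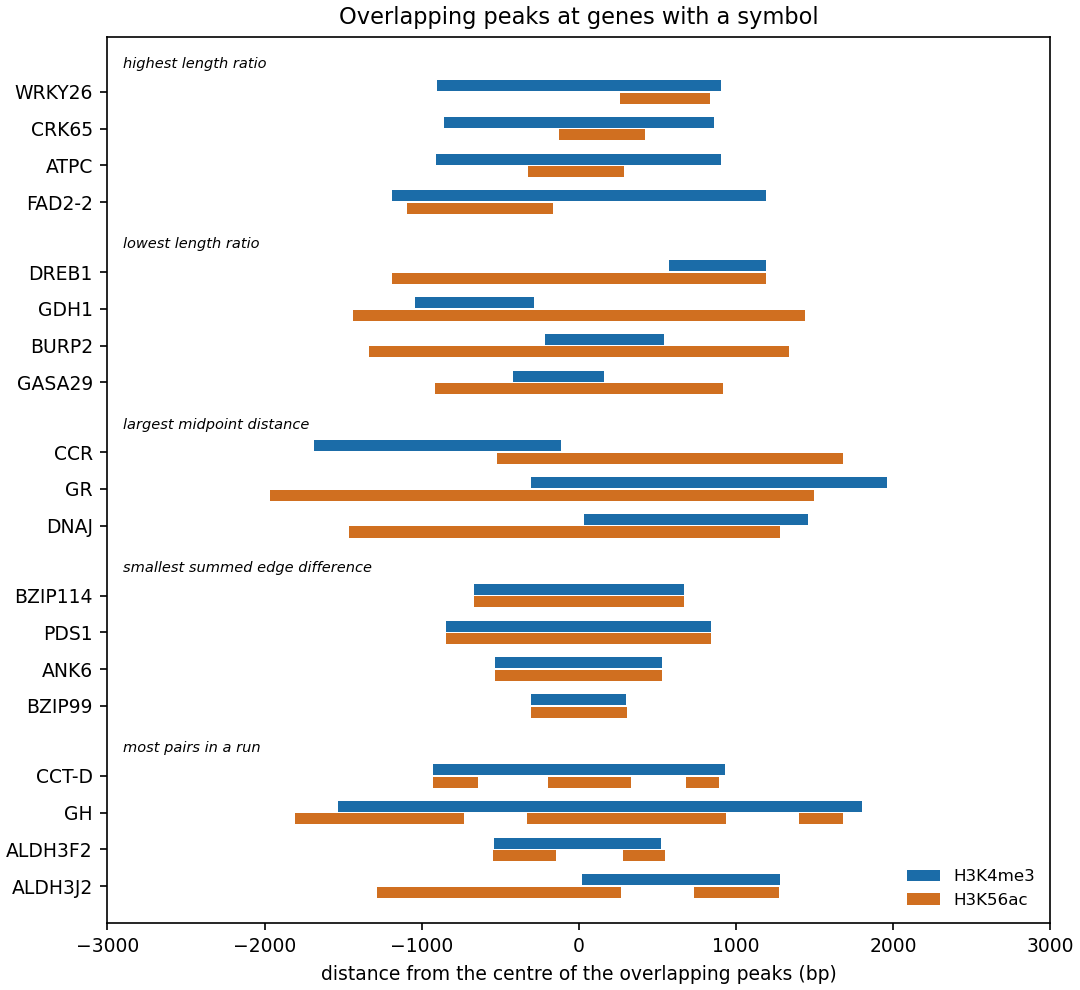
Overlapping H3K4me3 (blue, upper bar) and H3K56ac (orange, lower bar) peaks at 19 genes with a symbol, against distance in bp from the centre of each run of overlapping peaks; left and right follow the chromosome. Among one-to-one pairs with both peaks at least 500 bp long, WRKY26 to FAD2-2 have the highest length ratios and DREB1 to GASA29 the lowest; CCR, GR and DNAJ have large midpoint distances, BZIP114 to BZIP99 have nearly the same edges, and CCT-D to ALDH3J2 have several H3K56ac peaks along 1 H3K4me3 peak.

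Paired peaks were mostly of like length. The median length in pairs was 972 bp for H3K4me3 and 918 bp for H3K56ac. The ratio of H3K4me3 length to H3K56ac length had a median of 1.03, with quartiles of 0.862 and 1.23, and 54.7% of pairs were within 1.25-fold. H3K4me3 was the longer in 57.1%. The tails were wide and of similar size on both sides: the 5th percentile of the ratio was 0.331 and the 95th was 2.87. H3K4me3 was at least 2 times as long in 3789 pairs (8.81%), and H3K56ac was at least 2 times as long in 4104 (9.54%). The median ratio per chromosome ran from 1.01 on Gm09 to 1.05 on Gm05. As lists, H3K4me3 peaks had quartiles of 423 and 1214 bp and H3K56ac peaks of 354 and 1105 bp, the shortest peak was 147 bp in both, and the longest was 5737 bp for H3K4me3 and 8159 bp for H3K56ac.

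**Figure D2:**
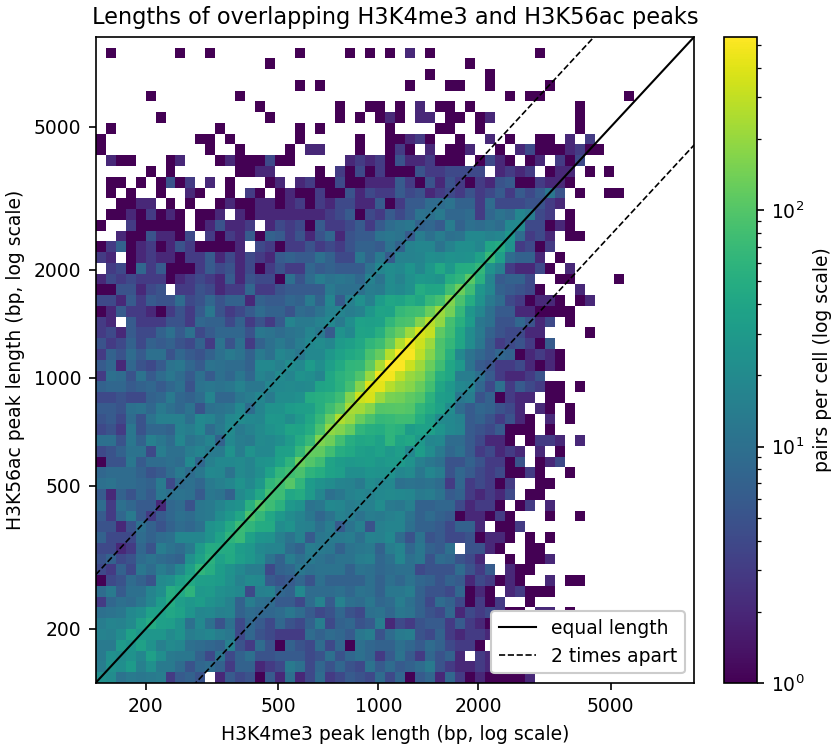
Length of the H3K4me3 peak (x axis, bp, log scale) against length of the H3K56ac peak (y axis, bp, log scale) for the 42999 pairs, coloured by the number of pairs per cell. Most pairs lie along the line of equal length and are densest near 1000 bp, while 8.81% lie on or beyond the dashed line on the H3K4me3 side and 9.54% on the H3K56ac side.

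The extremes of the ratio were looked at among one-to-one pairs with both peaks at least 500 bp long. The 4 highest ratios at genes with a symbol were 3.16 at WRKY26 (H3K4me3 1810 bp, H3K56ac 573 bp), 3.15 at the receptor-like kinase gene CRK65 (1721 and 547 bp), 2.98 at ATPC (1817 and 609 bp) and 2.57 at FAD2-2. In all 4 the H3K56ac peak lay inside the H3K4me3 peak. The 4 lowest were 0.26 at DREB1 (H3K4me3 613 bp, H3K56ac 2380 bp), 0.26 at the glutamate dehydrogenase gene GDH1 (761 and 2879 bp), 0.28 at BURP2 (758 and 2671 bp) and 0.32 at GASA29, a gibberellin-regulated peptide gene (580 and 1835 bp). In these the H3K4me3 peak lay inside the H3K56ac peak. The pair at BURP2 also lay within 1 kb of an end of another annotated gene. DREB1 encodes a transcription factor of the cold and dehydration response. Its right edges were at the same base, and H3K56ac reached 1767 bp farther on the left. None of these 4 genes had H3K36me3. Of the 4 with the highest ratios, ATPC and FAD2-2 had it and WRKY26 and CRK65 did not.

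Midpoints lay close together. The distance between the midpoints of a pair had a median of 49 bp with quartiles of 16 and 152 bp. It was within 50 bp in 50.6% of pairs, within 200 bp in 80.7% and within 500 bp in 94.7%. The H3K4me3 midpoint was to the right on the chromosome in 49.6%. A pair shared a median 81.3% of the length its peaks covered together, with quartiles of 58.4% and 92.5%. The median midpoint distance was 45 bp on Gm13 and 54.5 bp on Gm06, the lowest and the highest chromosome. The midpoint distance grew with the joint length, that is the length both peaks covered together. These measures are tied, since the joint length limits the distance and is itself larger where the peaks are shifted. Of 5 equal classes of joint length, the shortest (148 to 641 bp) had a median of 18 bp and the longest (1512 to 8159 bp) a median of 227 bp. From the shortest class to the longest, the median shared part of the joint length was 82.8%, 83.8%, 86.8%, 82.2% and 66.6%. Among one-to-one pairs with both peaks at least 500 bp long at genes with a symbol, the most distant midpoints were 1481.5 bp apart at CCR, where peaks of 1569 bp (H3K4me3) and 2202 bp (H3K56ac) shared 12.0% of their joint length. They were followed by GR with 1065.5 bp, DREB1 with 883.5 bp and the chaperone gene DNAJ with 835.5 bp. At CCR, GR and DNAJ the pair also lay within 1 kb of an end of another annotated gene.

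Nesting was more frequent than staggering. The H3K56ac peak lay inside the H3K4me3 peak in 18665 pairs (43.4%, interval 42.9 to 43.9). The H3K4me3 peak lay inside the H3K56ac peak in 12187 (28.3%, interval 27.9 to 28.8). In 12135 pairs (28.2%, interval 27.8 to 28.6) each mark reached farther on 1 side, and in 12 pairs (0.0279%) both edges were the same. Staggered pairs were still close: their median lengths were 1029 bp for H3K4me3 and 1030 bp for H3K56ac, and they shared a median 87.6% of their joint length. Where H3K56ac was inside, the medians were 1101 bp for H3K4me3 and 792 bp for H3K56ac, and where H3K4me3 was inside they were 641 bp and 1047 bp. By chromosome, H3K56ac was inside in 38.4% (Gm09) to 48.1% (Gm04) of pairs, and H3K4me3 in 24.4% (Gm10) to 32.3% (Gm09), so the first exceeded the second on every chromosome. The order rests on small edge differences in part. With edges within 100 bp taken as the same edge, 24.6% of pairs had H3K4me3 inside and 29.3% had H3K56ac inside.

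The balance of nesting differed with H3K36me3, which the pairing did not use. An H3K36me3 region overlapped 27878 pairs (64.8%) and missed 15121. Pairs with H3K36me3 had H3K56ac inside in 51.5% (interval 50.9 to 52.0), against 28.6% (interval 27.9 to 29.3) of pairs without it. H3K4me3 lay inside H3K56ac in 18.8% of pairs with H3K36me3 (interval 18.4 to 19.3) and in 45.9% of pairs without it (interval 45.1 to 46.7). The median lengths were 1113 bp for H3K4me3 and 1004 bp for H3K56ac with H3K36me3, and 611 bp and 709 bp without it. The median ratio was 1.06 with H3K36me3 and 0.931 without it. H3K56ac was at least 2 times as long in 4.37% of pairs with H3K36me3 and in 19.1% of pairs without it. H3K4me3 was at least 2 times as long in 7.50% and 11.2%. Pairs with H3K36me3 shared a median 85.9% of their joint length, and pairs without it 68.9%. Pairs with H3K36me3 were longer, with a median joint length of 1184 bp against 858 bp, but the difference in nesting was present in each of the 5 classes of joint length. In the shortest class H3K56ac was inside in 54.9% of pairs with H3K36me3 and in 30.3% of pairs without it. In the longest class the shares were 36.6% and 22.0%. H3K4me3 was inside in 18.8% and 40.7% of the shortest class, and in 25.1% and 53.9% of the longest. Whether signal strength or depth of the libraries has a part in these shares was not tested.

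**Figure D3:**
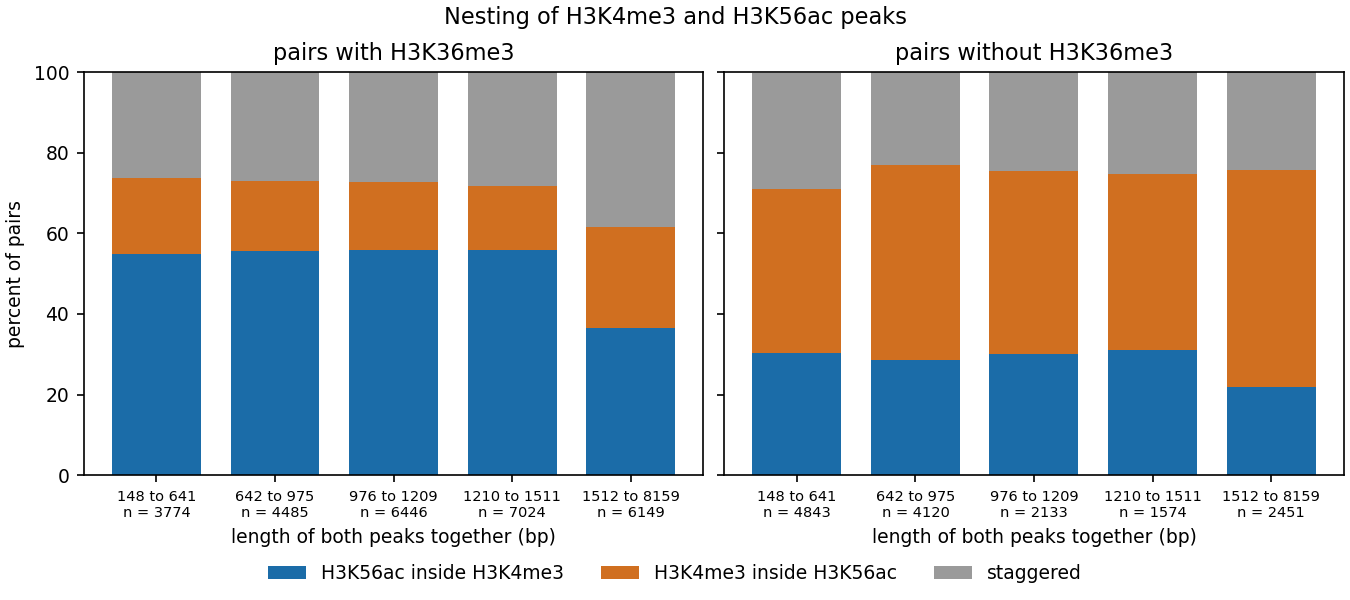
Percent of pairs with H3K56ac inside H3K4me3 (blue), H3K4me3 inside H3K56ac (orange) and staggered edges (grey), for pairs with H3K36me3 (left panel) and without it (right panel), by 5 equal classes of the length in bp of both peaks together; n is the number of pairs. In every class the blue share is larger with H3K36me3 and the orange share is larger without it.

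Edges on the same side of a pair were close, and H3K4me3 ended outermost more often. Over 85998 edges, the distance between the marks had a median of 54 bp with quartiles of 17 and 184 bp, and 48.3% were within 50 bp. Both edges of a pair were within 50 bp in 26.8% of pairs, 1 edge in 42.9% and neither in 30.3%. H3K4me3 was the outer mark at 56.8% of edges and H3K56ac at 41.8%. When H3K4me3 was outer it reached a median 53 bp beyond H3K56ac, and when H3K56ac was outer it reached a median 62 bp beyond H3K4me3. Differences over 300 bp were similarly frequent, with H3K4me3 outer at 8.40% of edges and H3K56ac outer at 8.44%. There were 1263 identical edges (1.47%), 635 on the left and 628 on the right, and a difference of 1 bp was seen at 808 edges with H3K56ac outer and at 878 with H3K4me3 outer. The count at 0 bp was 1.79 times the mean per bp of 705.25 at differences of 1 to 10 bp, counted in each direction. Such edges touched 1251 pairs, DREB1 and BZIP114 among them, and PDS1, whose left edges were the same and whose right edges were 2 bp apart. Pairs with H3K36me3 had H3K4me3 outer at 65.4% of edges, against 40.9% in pairs without it.

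Pairs were next oriented, so that the edge toward the gene could be told from the edge away from it. The gene table gave no strand, and orientation therefore used the side on which a gene lay. Isolated genes were those coding for protein that spanned 2000 bp or more and had no neighbour within 2000 bp. Of 17281 such genes, 10693 (61.9%) had a pair within 500 bp of a single end and 991 (5.73%) at both. A single gene oriented 10236 pairs. As a second way, 21482 pairs were oriented by an H3K36me3 region that extended over 400 bp more to one side. For the 6529 pairs oriented both ways the direction was the same in 6420 (98.3%).

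Over all oriented pairs H3K4me3 ended slightly farther out on both sides, and in the longer pairs its long extensions lay more often toward the gene. On the side toward the gene, H3K4me3 minus H3K56ac had a median of 16 bp, with quartiles of -7 and 124 bp, and H3K4me3 was farther in 66.6% of pairs (interval 65.7 to 67.5). On the side away from it the median was 21 bp, with quartiles of -14 and 69 bp, and H3K4me3 was farther in 65.2% (interval 64.3 to 66.1). Beyond 100 bp the sides were unlike. Toward the gene, H3K4me3 was farther by more than 100 bp in 27.0% of pairs and H3K56ac in 9.79%. Away from the gene these shares were 15.5% and 9.72%. The 95th percentile was 495 bp toward the gene and 194 bp away from it. The H3K4me3 midpoint was shifted toward the gene in 54.3% of pairs (interval 53.4 to 55.3), by a median of 4.5 bp. With orientation by H3K36me3, the medians were 18 bp on both sides, and H3K4me3 was farther in 68.1% of pairs toward the region's bulk and in 63.9% away from it. The median per chromosome ran from 10 to 25 bp toward the gene and from 15 to 32 bp away from it.

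**Figure D4:**
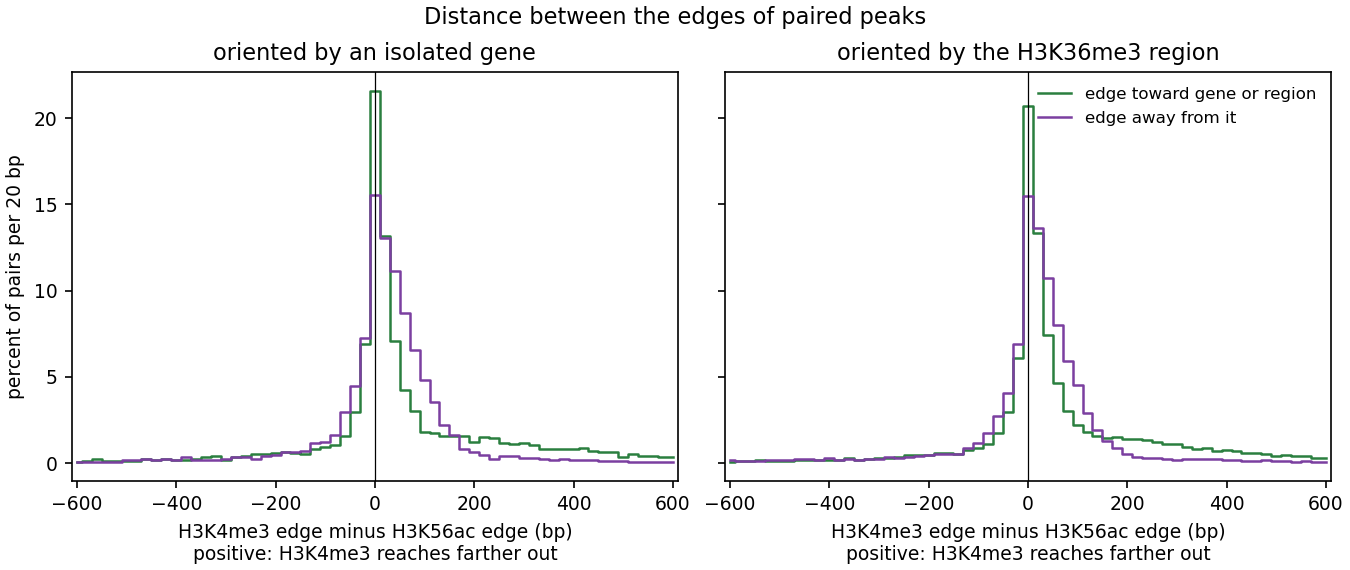
Distribution of H3K4me3 edge minus H3K56ac edge (x axis, bp, positive where H3K4me3 reaches farther out) as percent of pairs per 20 bp (y axis), on the edge toward the gene or region (green) and on the edge away from it (purple), for 10236 pairs oriented by an isolated gene (left panel) and 21482 oriented by H3K36me3 (right panel). The green curve has a shoulder above 200 bp that the purple curve lacks; H3K4me3 is farther by more than 100 bp in 27.0% of pairs toward the gene and in 15.5% away from it.

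The lead of H3K4me3 was seen in pairs with H3K36me3. Among 8196 gene-oriented pairs with H3K36me3, the median difference was 20 bp toward the gene and 25 bp away from it, and H3K4me3 was farther in 70.3% and 68.9%. Among 2040 pairs without it, the medians were 2 bp and 1 bp, and the shares were 51.7% (interval 49.5 to 53.9) and 50.5% (interval 48.3 to 52.7). The inward shift of the midpoint grew with joint length. In the shortest class the H3K4me3 midpoint was shifted by -4.5 bp, that is away from the gene, and it was nearer the gene in 39.2% of pairs. In the next 4 classes the median was -1 bp, 6.75 bp, 19.25 bp and 38.5 bp, and the shares were 48.8%, 57.1%, 59.9% and 59.1%. Long extensions differed by class too. From the shortest class to the longest, H3K4me3 was farther by more than 100 bp toward the gene in 4.19%, 14.1%, 25.9%, 40.6% and 38.2%. Away from the gene it was so in 11.8%, 15.7%, 15.4%, 17.3% and 15.2%. In pairs with H3K36me3 these shares were 28.4% toward the gene and 14.5% away, and in pairs without it 21.5% and 19.3%. Among 2922 staggered pairs, H3K4me3 was the mark on the gene side in 1542 (52.8%).

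A few wide peaks of one mark spanned several peaks of the other. At least 2 H3K56ac partners were found for 843 H3K4me3 peaks (2.00% of those paired), and at least 2 H3K4me3 partners for 659 H3K56ac peaks (1.56%). The maximum was 4 partners in both directions. The 817 H3K4me3 peaks over exactly 2 H3K56ac peaks had a median length of 1548 bp. Their partners had medians of 668 and 266 bp, with a gap of 354 bp between them (quartiles 317 and 453 bp). The 634 H3K56ac peaks over exactly 2 H3K4me3 peaks were longer, with a median of 1990.5 bp, and their partners of 823 and 302.5 bp were separated by 438 bp (quartiles 336 and 624 bp). No gap under 301 bp was present between peaks of either list. The middle of the gap lay in the central 50% of the wide peak in 91.2% of the first kind and 89.7% of the second. H3K36me3 overlapped 71.2% of the first kind and 54.4% of the second. At CCT-D on Gm08, an H3K4me3 peak of 1857 bp (3929766 to 3931622) ran across H3K56ac peaks of 289, 528 and 213 bp. At GH on Gm13, an H3K4me3 peak of 3337 bp ran across H3K56ac peaks of 1072, 1267 and 279 bp. These genes had 3 pairs each, and the pair taken for CCT-D also lay within 1 kb of an end of another annotated gene. The aldehyde dehydrogenase genes ALDH3F2 and ALDH3J2 were next, each with 2 pairs, taken in order of symbol among genes with 2 pairs. RBCS1 had the reverse form: its H3K56ac peak of 3148 bp on Gm13 (13107592 to 13110739) overlapped 2 H3K4me3 peaks, and the one taken as its pair was 659 bp long.

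Unpaired peaks were 9013 of the 51142 of H3K4me3 and 18113 of the 60424 of H3K56ac. They were short, with medians of 364 bp for unpaired and 962 bp for paired H3K4me3 peaks, and of 362 bp for unpaired and 909 bp for paired H3K56ac peaks. Length alone did not separate them, since 1068 unpaired H3K4me3 peaks (11.8%) and 1543 unpaired H3K56ac peaks (8.52%) were longer than 1000 bp. Over 10 equal classes of length, the paired share of H3K4me3 peaks was 49.7% in the shortest and peaked at 95.9% in class 9. For H3K56ac peaks it was 35.9% in the shortest, peaked at 92.8% in class 8 and was 91.3% in the longest.

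Most unpaired peaks lay over 1 kb from the other mark. The edge-to-edge distance from an unpaired H3K4me3 peak to the nearest H3K56ac peak had a median of 3592 bp with quartiles of 1184 and 7905 bp. From an unpaired H3K56ac peak to the nearest H3K4me3 peak the median was 2655 bp with quartiles of 1198 and 5487 bp. Per chromosome, the median lay between 2.77 and 4.77 kb for H3K4me3 and between 2.42 and 3.07 kb for H3K56ac. Within 300 bp of the other mark were 110 unpaired H3K4me3 peaks (1.22%) and 213 unpaired H3K56ac peaks (1.18%). Within 1 kb were 1969 (21.8%) and 3675 (20.3%). Farther than 10 kb were 1701 (18.9%) and 2111 (11.7%), and the farthest were 659 kb and 872 kb away. The number of peaks close to the other mark jumped above 300 bp: 787 unpaired H3K4me3 peaks (8.73%) and 1072 unpaired H3K56ac peaks (5.92%) were 300 to 500 bp away. Of the nearest H3K56ac peaks in that class 92.4% were themselves paired with another H3K4me3 peak, and of the nearest H3K4me3 peaks 94.3% were paired with another H3K56ac peak. Within 300 bp these shares were 29.1% and 63.4%. Peaks of the same list were never closer than 301 bp. An unpaired peak beside a pair therefore lay at least that far from the peak of its own mark. How far this limit sets the jump and the shares was not tested. Unpaired peaks, chosen for having no overlap with the other mark, lay nearer to their own mark than to the other. The median distance to the own mark was 2.04 kb for H3K4me3 and 1.28 kb for H3K56ac. For paired peaks the distance to the nearest peak of the own mark was 3.58 kb and 2.66 kb. When only the longer 50% of each list was kept, the median distance to the other mark was 7.40 kb for unpaired H3K4me3 and 5.76 kb for unpaired H3K56ac.

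**Figure D5:**
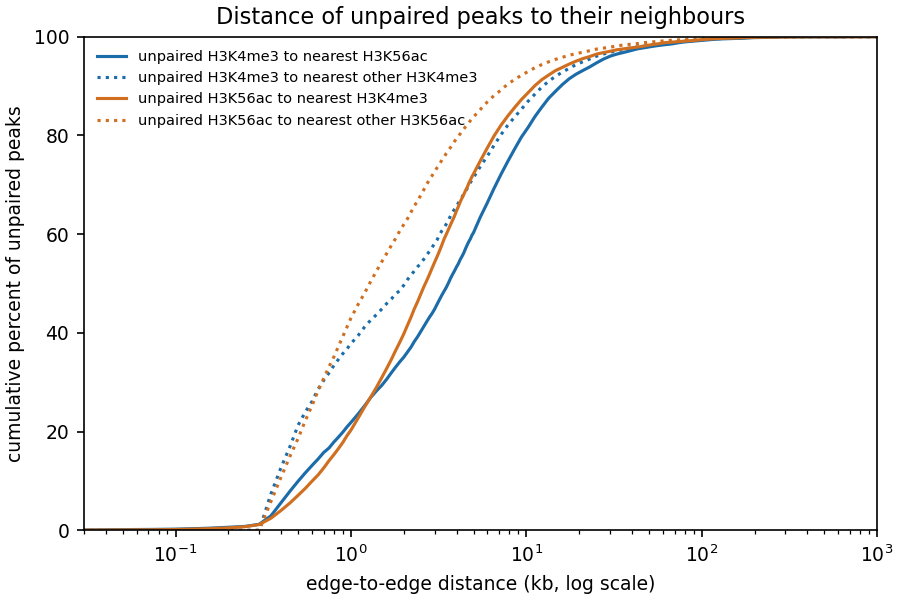
Cumulative percent of unpaired peaks (y axis) against edge-to-edge distance in kb (x axis, log scale) to the nearest peak of the other mark (solid) and of the own mark (dotted), for 9013 unpaired H3K4me3 peaks (blue) and 18113 unpaired H3K56ac peaks (orange). The solid curves start to climb above 0.3 kb, reach 21.8% (H3K4me3) and 20.3% (H3K56ac) at 1 kb and cross between 1 and 2 kb, after which the H3K56ac curve is higher. Peaks of the same list are never closer than 301 bp.

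Unpaired peaks of the 2 marks lay in different places relative to genes. Of unpaired H3K4me3 peaks 12.0% (1080) were outside genes and farther than 1 kb from a gene end, against 8.51% of paired ones. Of unpaired H3K56ac peaks 38.7% (7014) were, against 7.97% of paired ones. The share per chromosome was 8.99% to 18.9% for unpaired H3K4me3 and 32.7% to 45.6% for unpaired H3K56ac, so the ranges did not overlap. Within 1 kb of a gene end were 66.1% of unpaired and 79.2% of paired H3K4me3 peaks, and 42.9% of unpaired and 79.9% of paired H3K56ac peaks. For H3K56ac the difference from paired peaks was seen in each of 4 length classes. Among peaks up to 300 bp, 35.1% of unpaired and 6.10% of paired H3K56ac peaks were away from genes, and among those over 1000 bp the shares were 37.1% and 5.64%. For H3K4me3 the shares were 9.63% unpaired and 13.8% paired up to 300 bp, and 9.83% and 3.34% over 1000 bp. The share of unpaired H3K56ac peaks away from genes was 8.92% within 300 bp of an H3K4me3 peak, 13.9% at 500 to 1000 bp, 36.4% at 1 to 2 kb and 56.2% at 10 to 100 kb. For unpaired H3K4me3 it was 14.5%, 4.48%, 11.8% and 17.8% in the same classes.

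H3K36me3 overlapped fewer unpaired peaks: 19.0% of unpaired and 64.4% of paired H3K4me3 peaks, and 10.6% of unpaired and 64.9% of paired H3K56ac peaks. The share fell with distance beyond 300 bp. Of unpaired H3K4me3 peaks within 300 bp of an H3K56ac peak 16.4% had H3K36me3. At 300 to 500 bp the share was 60.4%, at 500 to 1000 bp 42.6%, at 1 to 2 kb 20.1%, at 2 to 5 kb 13.0% and at 10 to 100 kb 4.96%. Unpaired H3K56ac peaks had H3K36me3 in 23.9%, 24.4%, 16.7%, 12.8%, 9.68% and 1.55% of the same classes. At the 10693 isolated genes with a pair at a single end, the opposite end had an unpaired H3K4me3 peak in 233 (2.18%, interval 1.91 to 2.47) and an unpaired H3K56ac peak in 1161 (10.9%, interval 10.3 to 11.5). On the end with the pair, a further unpaired peak was seen in 21 genes for H3K4me3 (0.196%) and in 101 for H3K56ac (0.945%). The pair already filled part of that end, which left less room for a further peak than at the opposite end. Pairing differed little along the chromosomes, which were divided into 5 equal parts of their span. The paired share was 81.8%, 84.4%, 85.1%, 82.3% and 81.7% for H3K4me3, and 70.1%, 70.2%, 69.7%, 70.3% and 69.8% for H3K56ac. In the 3 inner parts the unpaired peaks were farther from the other mark, with medians of 4.09 to 5.07 kb for H3K4me3 and 3.20 to 3.99 kb for H3K56ac. In the outer parts the medians were 3.27 and 3.38 kb for H3K4me3, and 2.44 and 2.46 kb for H3K56ac.

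The longest unpaired peaks at genes with a symbol lay at genes of varied roles. Of H3K4me3, the longest was 3481 bp at the mitotic cyclin gene CYCB1;1 (Gm03, 34849731 to 34853211), 0.941 kb from the nearest H3K56ac peak and with H3K36me3. GY7, a glycinin gene, had 2376 bp (Gm19, 43001572 to 43003947) at 7.12 kb from H3K56ac. RTRP5 had 2374 bp (Gm09, 7937087 to 7939460) at 2.72 kb. ELIP, which encodes an early light-induced protein of the chloroplast, had 2315 bp (Gm20, 38917768 to 38920082) and an unpaired H3K56ac peak of 248 bp beside it, 0.365 kb away. The H3K4me3 peak at ELIP had H3K36me3 too, and those at GY7 and RTRP5 did not. Of H3K56ac, the longest was 2997 bp at the calmodulin-binding protein gene IQD42 (Gm12, 40250321 to 40253317), 1.35 kb from H3K4me3. The aldehyde dehydrogenase gene ALDH3H1 had 2614 bp (Gm04, 50376095 to 50378708) at 1.09 kb, with H3K36me3. WRKY54 had 2532 bp (Gm10, 1061154 to 1063685) at 2.04 kb, and BZIP50 had 2458 bp (Gm06, 46941909 to 46944366) at 0.690 kb. ALDH3H1 and BZIP50 also carried a pair, and WRKY54 carried an unpaired H3K4me3 peak of 885 bp.

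Genes were then sorted by the peaks that overlapped either end, 1 kb to each side. Of 46816 protein-coding genes, 30590 (65.3%) had a pair, 3414 (7.29%) had H3K4me3 alone, 1699 (3.63%) had H3K56ac alone, 367 (0.784%) had both marks in separate peaks and 10746 (23.0%) had neither. Taking the longest pair of each gene, median lengths were 1107 bp for H3K4me3 and 1016 bp for H3K56ac and the median ratio was 1.05. H3K4me3 was at least 2 times as long at 2463 genes (8.05%) and H3K56ac at 1967 (6.43%). H3K56ac was inside H3K4me3 at 14545 genes (47.5%) and H3K4me3 inside H3K56ac at 6717 (22.0%). A pair was present at 96.2% of 23935 genes with H3K36me3 and at 33.0% of 22881 genes without it. With H3K36me3, H3K56ac was inside at 51.1% of genes with a pair, against 36.8% without it. H3K4me3 was inside at 18.0% of genes with H3K36me3 and 34.0% of genes without it.

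Photosynthesis and chlorophyll genes mostly had pairs, which at the median shared less of their joint length than pairs over all genes. Of 16 such genes 15 had a pair, where 65.3% of all protein-coding genes and 96.2% of those with H3K36me3 had one. RBCS2 had H3K4me3 alone, a peak of 157 bp, near the shortest length of 147 bp in the list. Their median ratio was 1.16 and the median shared length 68.6%, the lowest of the 14 groups described here, against 83.6% over all genes with a pair. RCABETA had 2396 bp of H3K4me3 and 2342 bp of H3K56ac that shared 97.7% of their joint length, and CAB3 had 1520 and 1270 bp that shared 78.9%. FTRC had 1601 bp of H3K4me3 and 895 bp of H3K56ac, a ratio of 1.79. H3K56ac was at least 2 times as long at 3 genes: RBCS1, with an H3K4me3 peak of 659 bp and an H3K56ac peak of 3148 bp, and the magnesium chelatase subunit genes CHLH (1090 and 2370 bp) and CHLI (1387 and 2895 bp). H3K4me3 was at least 2 times as long at RCAALPHA (1367 and 260 bp) and RCA14 (2011 and 376 bp). RCAALPHA, RCA14, CHLH, CHLI and RBCS2 were chosen after their values were seen. At CHLH and CHLI the pair also lay within 1 kb of an end of another annotated gene. At RCAALPHA and RCA14 the H3K4me3 peak spanned 2 H3K56ac peaks, and at RBCS1 and CHLI the H3K56ac peak spanned 2 H3K4me3 peaks, so the ratio of the single pair overstates the difference at these genes. Summed over all peaks at the gene, H3K4me3 covered 2884 bp and H3K56ac 4329 bp at RBCS1, and 1734 bp and 1158 bp at RCAALPHA.

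Clock and light genes had closely matched peaks, near the values of all genes with H3K36me3. Of 36 genes 31 had a pair, 4 had H3K4me3 alone and the phytochrome gene PHYE2 (named after its values were seen) had neither. A pair was present at 86.1%, against 65.3% of all protein-coding genes and 96.2% of those with H3K36me3. The median ratio was 1.03 and the median shared length 88.6%. Over all genes with a pair these were 1.05 and 83.6%, and over those with H3K36me3 1.05 and 86.2%. The phytochrome genes PHYA (1306 and 1384 bp) and PHYB (395 and 408 bp) and the GIGANTEA gene E2 (1522 and 1515 bp) had staggered peaks, and TOC1 and the clock gene LCL1 (348 and 238 bp) had H3K56ac inside. H3K4me3 was at least 2 times as long at 3 genes, LCL3, LUXC and COL21, chosen after their values were seen, and H3K56ac at 0. Over all genes with a pair the shares were 8.05% and 6.43%. The highest ratio of the clock and light genes was at COL21. It had an H3K4me3 peak of 2908 bp over 2 H3K56ac peaks, the paired one being 486 bp. The flowering repressor gene E1 is outside the group and had H3K56ac alone, a peak of 158 bp. The shortest peak of that list was 147 bp.

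In regulators of histone acetylation, 23 of 24 histone deacetylase genes had a pair and HDA4 had neither mark, where 65.3% of all protein-coding genes and 96.2% of those with H3K36me3 had a pair. H3K56ac was inside H3K4me3 at 14 of these 23 and H3K4me3 was inside at 0, with a median ratio of 1.11. Over all genes with a pair, H3K56ac was inside at 47.5% and H3K4me3 at 22.0%. HDA3 (841 bp of H3K4me3 and 394 bp of H3K56ac) was the gene with a ratio of at least 2. HDA3 and HDA4 were chosen after their values were seen. The 10 tubulin and elongation factor genes all had a pair, with H3K56ac inside at 8 and a median ratio of 1.10. EF1BGAMMA3 (chosen after its values were seen) had the highest ratio of these 10, with 1698 bp of H3K4me3 and 147 bp of H3K56ac. That H3K56ac peak had the shortest length in its list.

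Of the transcription factor families, bZIP, MYB and WRKY genes were close to all genes in their median ratios. Pairs were found at 65 of 77 bZIP genes, 45 of 70 MYB genes, 43 of 61 WRKY genes, 31 of 37 heat shock factor genes and 18 of 41 NAC genes, where 65.3% of all protein-coding genes had one. Median ratios were 1.05, 1.03, 1.04, 1.13 and 0.98 in the same order, against 1.05 over all genes with a pair. Ratios of at least 2 or at most 0.5 were present at 5 and 2 bZIP genes, 3 and 4 MYB genes, 4 and 4 WRKY genes, 4 and 2 heat shock factor genes, and 0 and 0 NAC genes. Over all genes with a pair, 8.05% had a ratio of at least 2 and 6.43% a ratio of at most 0.5. H3K4me3 alone was found at 6 WRKY genes (9.84%) and H3K56ac alone at 2 (3.28%), near the 7.29% and 3.63% of all protein-coding genes. WRKY55 (chosen after its values were seen) had the lowest ratio of the WRKY genes, with 185 bp of H3K4me3 inside 1438 bp of H3K56ac, a peak that also overlapped a second H3K4me3 peak.

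H3K4me3 without H3K56ac was found at many auxin carrier and seed genes. Of 28 PIN and LAX genes, which encode auxin efflux and influx carriers, 14 had a pair and 11 (among them PIN1A, PIN1B and PIN1C, chosen after their values were seen) had H3K4me3 alone, where 7.29% of all protein-coding genes had. None had H3K56ac alone, where 3.63% of all protein-coding genes had. Over all protein-coding genes 65.3% had a pair and 23.0% had neither. Of 46 seed storage and maturation genes, 13 had a pair, 19 had H3K4me3 alone, 4 had H3K56ac alone and 10 had neither. The H3K4me3 peak was 1005 bp at the lectin gene LE1, 686 bp at GY2 and 2376 bp at GY7. KTI3 had a pair of 725 bp of H3K4me3 and 433 bp of H3K56ac. Of 21 gibberellin oxidase genes 11 had a pair and 4 had H3K4me3 alone. At GA3OX6, a gibberellin 3-oxidase gene chosen after its values were seen, 491 bp of H3K4me3 lay inside 1279 bp of H3K56ac.

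Nodulation and SWEET genes lacked both marks in over 50% of cases, against 23.0% of all protein-coding genes, and 65.3% of all protein-coding genes had a pair. Of 22 nodulation genes 3 had a pair, 4 had H3K4me3 alone, 2 had H3K56ac alone and 13 had neither, the receptor gene NFR5A among these. The nodulin gene NOD33 had the highest ratio of the 3 pairs, with 1640 bp of H3K4me3 and 1024 bp of H3K56ac. Of 43 SWEET sugar transporter genes 10 had a pair, 5 had H3K4me3 alone, 3 had H3K56ac alone, 1 had both marks in separate peaks and 24 had neither. Group counts describe 1 library per mark, and members of a family need not be independent.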

How the data were processed

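The authors deposited 1 peak list per mark, which holds the chromosome, start and end of each peak in bp and no score, fold or p-value. Tools named in the submitters' processing notes, without roles or versions, are Trimmomatic, Bowtie2, Picard, SICER and MACS2. Not given in the sources used here are the caller, the threshold, the use of the inputs and the soybean build. Inputs and the maize list were not used here. For soybean the series' design text has H3K4me1, but the sample itself is titled H3K4me3 with a matching antibody label, which was followed.

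Starts of the narrow lists were taken as counted from 0 and are printed counted from 1; ends of H3K36me3 regions were moved by 1 bp. Peaks were paired from 1 bp, and no test between samples was run. Genes came from a RefSeq table of assembly Glycine_max_v4.0, whose coordinates are not printed. As a check of register, 39.1% of H3K4me3 midpoints were at most 500 bp from the end of a gene coding for protein, against at most 16.2% after shifts of 20 or 100 kb. Small differences between builds would pass that check. Gene groups were formed from gene symbols. Named genes were the listed symbols, the 4 most extreme pairs by length ratio, midpoint distance and edge difference, the 4 longest unpaired peaks of each mark and the 4 genes with most pairs; LOX1 and WRKY, also listed, were not matched. Members, lists and alternatives were chosen with earlier results of these data known. The scripts were tested on simulated intervals and used Python 3.11.15, pandas 2.3.3, numpy 2.4.6 and scipy 1.17.1. Alternatives were another overlap, the longer 50% of each list, all sequences, joined peaks, one-to-one pairs and edge tolerances.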

Additional observations from a re-analysis of the deposited data

How the results depend on the processing

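Of 64 alternative values, 33 stayed within the spread of the value reported and 31 moved. The 33 include the values after joining peaks closer than 200 bp, which could only repeat the main values. No length ratio, nesting order or edge difference changed direction. The share of H3K4me3 peaks paired was 82.4%, against 68.0% with a reciprocal overlap of 50%, 83.3% in the longer 50% of each list and 84.0% with peaks closer than 500 bp joined, an alternative chosen after seeing the data. The share of H3K56ac peaks paired was 70.0%, against 57.6%, 70.5% and 71.7% in the same order. The median length ratio was 1.03, against 1.04 in the longer 50% and 1.02 with joined peaks. The median midpoint distance was 49 bp, against 42 bp in one-to-one pairs, 57.5 bp with joined peaks and 34 bp with reciprocal overlap. H3K4me3 lay inside H3K56ac in 28.3% of pairs, against 29.2% and 24.6% with edges within 50 and 100 bp taken as the same, 20.1% in the longer 50% and 25.0% with reciprocal overlap. H3K56ac lay inside H3K4me3 in 43.4%, against 39.0%, 29.3%, 46.2% and 44.1% in the same order, and 42.1% with joined peaks. H3K4me3 was outermost at 57.6% of unequal edges, against 56.3% with a tolerance of 50 bp, 63.2% in the longer 50%, 56.9% with joined peaks and 59.7% with reciprocal overlap. The oriented difference away from the gene was 21 bp, against 18 bp with orientation by H3K36me3. The median distance of unpaired H3K4me3 peaks was 3.59 kb, against 7.40 kb in the longer 50%, where fewer peaks are left to be near, 4.27 kb from midpoint to midpoint and 4.22 kb with joined peaks. For unpaired H3K56ac it was 2.66 kb, against 5.76, 3.43 and 2.96 kb. Joining peaks closer than 200 bp joined none. The cause of the other moves was not tested. No paired analysis was possible because each mark had 1 library and the results come from no test between samples. Depth is unknown, so a peak missing in one list cannot be told from one below its threshold.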
